A study of Mus musculus with 13 samples.

Results

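Axl, Mertk and Tyro3 are the TAM receptors, Gas6 and Pros1 encode their 2 ligands, Mfge8 encodes another protein that bridges debris to phagocytes, and Megf10 encodes an engulfment receptor. These 7 genes were taken by symbol from the annotation deposited with bulk RNA-seq of mouse brain, which held 55401 gene identifiers and each of the 7 symbols once. All 7 genes passed the filter on low counts, as did 14985 genes in all. The libraries came from male C57BL/6J mice, which were 6 to 8 weeks old per the labels, 1 mouse per library. Control mice (CTL, n = 5) ate control chow for 6 weeks. Cuprizone mice (CPZ, n = 4) ate chow with 0.3% cuprizone, a copper chelator that kills mature oligodendrocytes, for 4 weeks. Recovery mice (RCV, n = 4) ate the same cuprizone chow for 4 weeks and then control chow for 2 weeks. RNA was taken from a frozen brain hemisphere, so that each value is a mean over many regions and cell types, and a lower level can mean fewer cells of a type or less RNA per cell, which cannot be told apart here. CPZ brains were collected at week 4 and CTL and RCV brains at week 6 of their diets. This gap in time and the diet cannot be told apart in CPZ against CTL or in CPZ against RCV.

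The TAM receptors are receptor tyrosine kinases that do not bind debris directly. Gas6 and protein S, the product of Pros1, bind phosphatidylserine on dying cells or membrane debris with a vitamin K-dependent domain and bind the receptor with the other end, and so link debris to the phagocyte. Gas6 is known to bind all TAM receptors, and protein S to act on Mertk and Tyro3. In the brain, Mertk and Axl are known for engulfment by microglia and astrocytes, Tyro3 is found mainly in neurons and oligodendroglia, and Gas6 has been linked to the clearance of myelin debris. Mfge8 links phosphatidylserine to integrins rather than to TAM receptors, and Megf10 is known for engulfment of synapses by astrocytes.

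Libraries held between 4605100 and 8197289 estimated counts, and the members had between 74 and 1236 counts per library. The summed TPM of 8 neuronal markers was 3659 to 4740 over the libraries. The 15 microglial markers summed to between 576.9 and 712.2 TPM in CTL, 2427 and 5277 in CPZ, and 950.6 and 1370 in RCV. Mature oligodendrocyte markers summed to between 2074 and 3799 TPM in CTL, 943.4 and 1463 in CPZ, and 2736 and 4501 in RCV. The 6 choroid plexus markers varied from 13.24 to 5139 TPM, and RCV replicates 3 and 4 held the least. Markers of blood monocytes and border macrophages summed to at most 6.93 TPM.

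The coordinates here are those of GRCm38, and the proximal promoters below are shown because 4 of these 5 genes were higher in CPZ than in CTL and the fifth, Tyro3, was not called. Axl spans chr7:25757273-25788705 on the minus strand, Mertk chr2:128698956-128802894 on the plus strand and Tyro3 chr2:119797733-119818104 on the plus strand. Gas6 spans chr8:13465374-13494490 on the minus strand and Pros1 chr16:62854307-62929346 on the plus strand. RefSeq promoters of GRCm38.p6 matched 6 of the 7 members. That of Tyro3 lies within the gene span given above, so it precedes an internal start. For Mertk and Gas6, bases after the RefSeq start were not found in a GENCODE transcript of the gene. Each sequence below is the 250 bases before the RefSeq start, written 5′ to 3′ on the strand of the gene, at chr7:25788734-25788983 (minus) for Axl, chr2:128698665-128698914 (plus) for Mertk, chr16:62854057-62854306 (plus) for Pros1, chr8:13494536-13494785 (minus) for Gas6 and chr2:119799264-119799513 (plus) for Tyro3. Capitals mark every match, on either strand, to the GC box GGGCGG or to the STAT site TTCNNNGAA.
Axl: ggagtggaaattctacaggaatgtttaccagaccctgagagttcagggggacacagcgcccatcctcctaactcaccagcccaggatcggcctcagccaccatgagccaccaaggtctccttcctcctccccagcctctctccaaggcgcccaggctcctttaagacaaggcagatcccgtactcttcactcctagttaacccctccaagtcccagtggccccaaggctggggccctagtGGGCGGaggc
Mertk: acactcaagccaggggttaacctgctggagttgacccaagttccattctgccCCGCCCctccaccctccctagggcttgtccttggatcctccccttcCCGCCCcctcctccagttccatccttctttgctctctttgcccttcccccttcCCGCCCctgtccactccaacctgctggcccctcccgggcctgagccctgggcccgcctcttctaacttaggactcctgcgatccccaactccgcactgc
Pros1: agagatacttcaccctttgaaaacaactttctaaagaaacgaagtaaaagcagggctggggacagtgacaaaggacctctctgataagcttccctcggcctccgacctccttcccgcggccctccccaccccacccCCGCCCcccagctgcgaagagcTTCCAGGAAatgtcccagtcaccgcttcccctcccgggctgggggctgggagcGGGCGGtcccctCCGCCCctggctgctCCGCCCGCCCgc
Gas6: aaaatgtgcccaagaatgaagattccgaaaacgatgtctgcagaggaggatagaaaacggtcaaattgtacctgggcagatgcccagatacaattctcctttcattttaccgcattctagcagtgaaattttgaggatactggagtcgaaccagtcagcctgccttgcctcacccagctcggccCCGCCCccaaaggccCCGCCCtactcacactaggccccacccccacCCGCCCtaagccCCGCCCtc
Tyro3: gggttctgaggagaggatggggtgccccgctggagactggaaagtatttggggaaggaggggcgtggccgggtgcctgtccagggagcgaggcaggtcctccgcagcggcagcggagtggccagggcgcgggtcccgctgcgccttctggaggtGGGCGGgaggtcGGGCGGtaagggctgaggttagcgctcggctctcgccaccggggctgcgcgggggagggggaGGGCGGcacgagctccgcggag

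All 5 promoters held the GC box, with 1 match in Axl, 3 in Mertk, 5 in Pros1, 4 in Gas6 and 3 in Tyro3. This sequence occurs in 32.7% of 32851 mouse promoters of the same length. The STAT site occurred in Pros1 and in none of the other 4, against 7.02% of all promoters. The letters of the CCAAT box (CCAAT), the TATA box (TATAAA), the AP-1 site (TGANTCA), the PU.1 site (GAGGAAGT), the interferon-stimulated response element and the E-box (CACGTG) were in none of these windows, and they are in 33.9%, 12.4%, 6.75%, 2.44%, 2.98% and 6.02% of all promoters. GC content was 60.0% for Axl, 63.6% for Mertk, 64.4% for Pros1, 54.8% for Gas6 and 73.2% for Tyro3, against a median of 52.4% over all promoters. The GC box was thus shared by the promoters of the genes that were higher in CPZ and by that of Tyro3.

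Both ligands and the receptors Axl and Mertk were higher in CPZ brains than in CTL brains, Mfge8 was lower, and Tyro3 and Megf10 were not called. Pros1 was 2.71-fold and Axl 2.54-fold higher, Mertk was 1.78-fold and Gas6 1.27-fold higher, and Mfge8 was at 0.739 of its control level. Calls are at an adjusted p below 0.05 in the edgeR quasi-likelihood test over all genes. In this test, 4 of the 7 members were called higher, against 7.66% of all genes tested, and 1 was called lower, against 2.5%. The levels of CPZ and CTL did not overlap for 3 members that were higher in CPZ, against 8.25% of all genes, and for 1 that was lower, against 4.86%.

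Axl encodes the TAM receptor that is known to be induced by inflammation. Its level, in CPM (counts scaled by TMM to a common library total), was 52.33, 51, 45.03, 52.29 and 46.95 in the CTL libraries. In CPZ it was 161.3, 126, 106.3 and 109.8, and in RCV 67.44, 74.52, 65.63 and 71.34. The 3 groups did not overlap for Axl, with RCV between CTL and CPZ. CPZ and CTL differed by a log2 fold change of 1.34 (SE 0.10, 95% interval 1.12 to 1.56, edgeR adjusted p = 7.28e-07), and 2.96% of all genes tested had a larger one.

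Mertk encodes the TAM receptor most closely tied to the uptake of dying cells. Its CPM was 39.15, 31.95, 32.43, 30.58 and 30.81 in CTL, 75.92, 66, 42.59 and 51.26 in CPZ, and 47.5, 38.23, 40.61 and 49.87 in RCV. The lowest CPZ value was close to the highest CTL value, so that the groups were separate by a narrow gap, and CPZ replicates 1 and 2 were well above replicates 3 and 4. For CPZ against CTL the log2 fold change was 0.83 (SE 0.15, 95% interval 0.52 to 1.15, edgeR adjusted p = 0.00128).

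Tyro3, the TAM receptor with the highest level in the control brain, had a fold change below 1 and was not called. Its CPM was 161.1, 185.4, 176.9, 148 and 141.6 in CTL, 136.9, 115.8, 136.7 and 150.4 in CPZ, and 155.2, 127, 140.1 and 196.2 in RCV. In CPM the groups overlapped, whereas in TPM all CPZ libraries (62.91 to 86) were below all CTL libraries (87.18 to 99.47). The log2 fold change of CPZ against CTL was -0.27 (SE 0.12, 95% interval -0.52 to -0.015, edgeR adjusted p = 0.196), and the whole interval lay below those of Axl and Mertk.

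**Figure D1:**
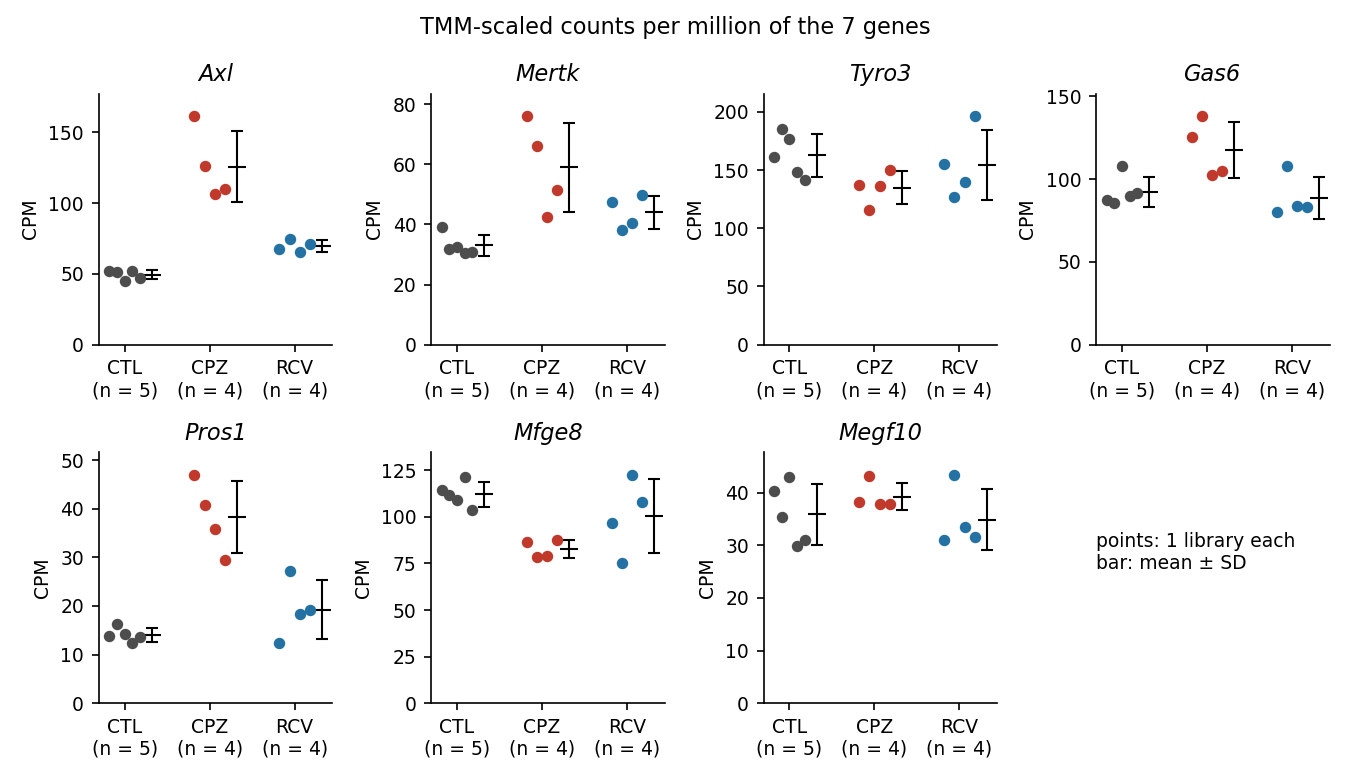
CPM of each of the 7 genes in each library (points), with the mean ± SD of each group beside the points; each panel has its own linear axis from 0. Axl separates all 3 groups, Pros1 is at 29.44 to 46.96 in CPZ against 12.38 to 16.35 in CTL, and Mfge8 in CPZ lies under every CTL library.

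Pros1, the gene of protein S, had the largest log2 fold change of the 7 members. Its CPM was 13.87, 16.35, 14.14, 12.38 and 13.57 in CTL, 46.96, 40.84, 35.79 and 29.44 in CPZ, and 12.46, 27.22, 18.28 and 19.08 in RCV. Every CPZ library was above every CTL and RCV library, and RCV replicate 1 was inside the CTL range while the other 3 were above it. The log2 fold change of CPZ against CTL was 1.44 (SE 0.18, 95% interval 1.05 to 1.83, edgeR adjusted p = 6.89e-05), larger than that of all but 2.7% of genes.

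Gas6, the ligand shared by all TAM receptors, changed far less. Its CPM was 87.4, 85.35, 108.2, 89.6 and 91.87 in CTL, 125.8, 138, 102.4 and 105.1 in CPZ, and 79.9, 107.7, 83.72 and 83.05 in RCV. CTL replicate 3 was above CPZ replicates 3 and 4, so that the groups overlapped. The log2 fold change of CPZ against CTL was 0.35 (SE 0.11, 95% interval 0.12 to 0.58), with an edgeR adjusted p of 0.0494, just inside the threshold. The call was lost without any 1 of CTL replicates 1, 2, 4 and 5 and CPZ replicates 1 and 2 (adjusted p = 0.0844 to 0.179), with limma-voom (adjusted p = 0.0539) and with limma on log2 TPM (adjusted p = 0.137 to 0.214). Gas6 shares 3100 bases with Tmem255b on the other strand, which had a mean count of 9.31 against 660.8 for Gas6.

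Mfge8 (chr7:79133768-79149060, minus strand), which encodes the bridging protein that binds integrins, was the member called lower. Its CPM was 114.7, 111.9, 109.1, 121.4 and 103.6 in CTL, 86.29, 78.52, 78.94 and 87.8 in CPZ, and 96.75, 75.17, 122.6 and 107.8 in RCV. The 4 CPZ libraries lay close together and under all CTL libraries, whereas RCV replicate 2 was the lowest library of all 13 and RCV replicate 3 the highest. Between CPZ and CTL the log2 fold change was -0.44 (SE 0.10, 95% interval -0.66 to -0.21, edgeR adjusted p = 0.0115). Megf10, the engulfment receptor, ranged from 29.81 to 43.03 CPM in CTL, 37.83 to 43.15 in CPZ and 31.08 to 43.42 in RCV, all overlapping. Its log2 fold change of CPZ against CTL was 0.13 (SE 0.12, 95% interval -0.12 to 0.38, edgeR adjusted p = 0.605).

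No member was called in RCV against CTL with edgeR, against 0.374% of all genes tested. At an unadjusted edgeR p below 0.05 there were 3 members, Axl, Mertk and Pros1, against 929 of all 14985 genes tested. At the adjusted threshold the DESeq2 Wald test called 1 member and limma-voom 0. Every RCV library was above every CTL library for Axl and for no other member, against 2.21% of all genes with RCV higher and no overlap. The log2 fold change of Axl was 0.49 (SE 0.11, 95% interval 0.26 to 0.72, edgeR adjusted p = 0.0724). Axl passed the threshold when only the 2 groups were fitted (adjusted p = 0.00698), without the filter on low counts (adjusted p = 0.0404) and in the DESeq2 Wald test (adjusted p = 0.00823), and its adjusted p ranged from 0.00698 to 0.866 over the alternatives. Mertk had a log2 fold change of 0.41 (95% interval 0.089 to 0.74) and Pros1 one of 0.45 (95% interval 0.030 to 0.87), with edgeR adjusted p values of 0.55 and 0.737. Without RCV replicate 2 the value of Pros1 was 0.22 (edgeR adjusted p = 0.914). The intervals of the other members spanned 0, from -0.33 to 0.18 for Tyro3, -0.29 to 0.17 for Gas6, -0.38 to 0.061 for Mfge8 and -0.30 to 0.21 for Megf10.

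The members called higher in CPZ than in RCV were Axl, Pros1 and Gas6, so 3 of 7, against 5.13% of all genes called higher. Axl had a log2 fold change of 0.85 (SE 0.11, edgeR adjusted p = 0.000352) and Pros1 one of 0.99 (SE 0.19, edgeR adjusted p = 0.00529), both with every CPZ library above every RCV library, as for 8.26% of all genes. In TPM, Pros1 overlapped, with CPZ replicate 4 at 21.05 and RCV replicate 2 at 22.34. Gas6 overlapped between these groups, with a log2 fold change of 0.41 (SE 0.11, edgeR adjusted p = 0.0404). The call for Gas6 was lost with limma on log2 TPM (adjusted p = 0.0899 to 0.147), with the 2 groups alone (adjusted p = 0.0788) and without any 1 of CPZ replicates 1 and 2 and RCV replicates 1, 3 and 4 (adjusted p = 0.0911 to 0.132). Mertk was not called (log2 fold change 0.42, 95% interval 0.091 to 0.75, edgeR adjusted p = 0.136), but it was without CPZ replicate 3 (adjusted p = 0.0167). Mfge8 was not called either (log2 fold change -0.28, edgeR adjusted p = 0.174) and was without RCV replicate 2, the library with the least Mfge8, where the log2 fold change was -0.39 (adjusted p = 0.00857). CPZ against CTL and RCV against CTL use the same 5 control mice, so the values of these comparisons are not independent. The same holds for CPZ against CTL and CPZ against RCV, which use the same CPZ mice.

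**Figure D2:**
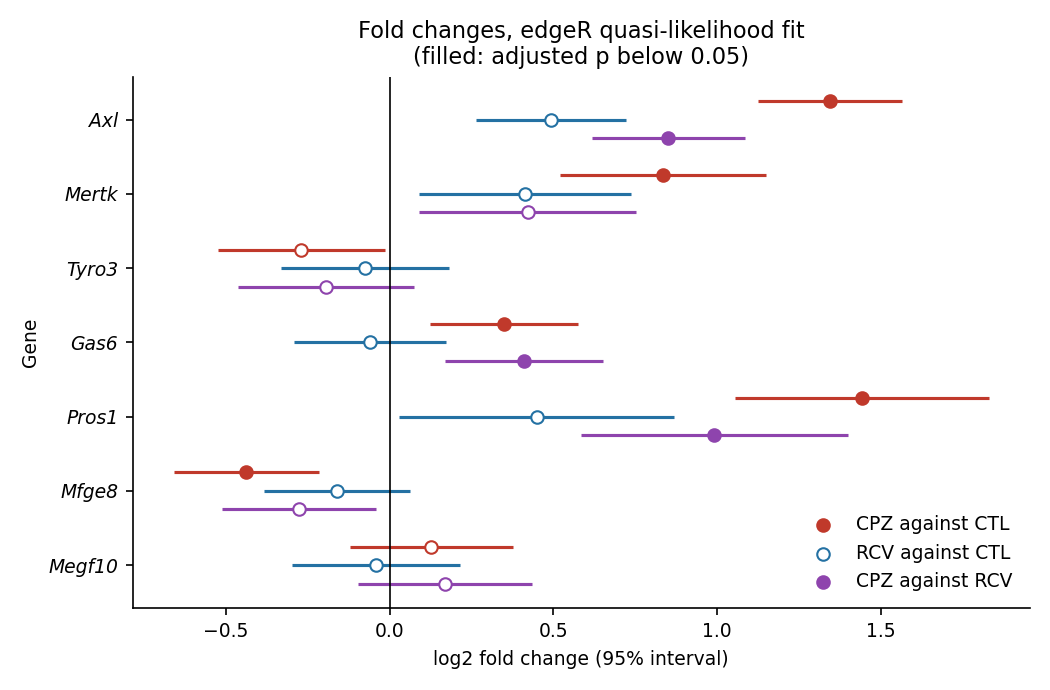
Log2 fold change of each member (points) with its 95% interval (lines) for CPZ against CTL (red), CPZ against RCV (purple) and RCV against CTL (blue); filled points are those called by edgeR. The fold changes of Axl and Pros1 are the largest in CPZ against CTL, with intervals that overlap the upper end of that of Mertk. In RCV against CTL every point is open.

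How much of the CPZ change was still there in RCV, measured as a share on the log2-CPM scale for the 5 members called between CPZ and CTL, was described without a test. It was 0.372 ± 0.0618 for Axl (SD, n = 4) and 0.513 ± 0.225 for Mertk. For Axl all 4 recovery mice lay within a narrow range, from 0.308 to 0.446. Pros1 gave 0.283 ± 0.322, Mfge8 0.408 ± 0.687 and Gas6 -0.196 ± 0.575. Single RCV mice ranged from -0.117 to 0.669 for Pros1, from -0.299 to 1.32 for Mfge8 and from -0.600 to 0.657 for Gas6, a far wider spread than for Axl. The share is divided by the CPZ change, which was small for Gas6 and Mfge8 (log2 fold changes 0.35 and -0.44, against 1.34 for Axl). This widens their spread, and the SD leaves out the error of the CTL and CPZ means. Single libraries moved these shares by more than 1.5 times: without RCV replicate 2 they were 0.154 for Pros1, 0.104 for Mfge8 and -0.480 for Gas6, and without RCV replicate 3 the share was 0.644 for Mfge8. For Gas6 it also moved that far without CTL replicate 2 (-0.300), CTL replicate 3 (-0.023) and RCV replicates 1 (-0.061), 3 (-0.127) and 4 (-0.115). On the linear TPM scale the share for Axl was 0.186.

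To compare levels between genes, TPM, which is scaled to transcript length, was used. In CTL brains the order was Mfge8 (125 ± 6.12 TPM, SD, n = 5), Tyro3 (93.1 ± 4.62), Gas6 (78.2 ± 7.58), Axl (30.5 ± 4.37), Mertk (17.0 ± 1.79), Pros1 (10.6 ± 2.19) and Megf10 (9.79 ± 1.46). Each gene was above the next in all 5 libraries, except that Pros1 was above Megf10 in 4 of 5. In CPZ brains the order was Gas6 (97.7 ± 14.9 TPM, SD, n = 4), Mfge8 (90.8 ± 3.91), Tyro3 (74.6 ± 9.67), Axl (73.4 ± 25.9), Mertk (28.9 ± 8.23), Pros1 (28.0 ± 5.63) and Megf10 (10.8 ± 1.29). There, Gas6 and Mfge8, and likewise Tyro3 and Axl, each stood above the other in 2 of 4 libraries, and Mertk was above Pros1 in 3 of 4. In RCV the order was that of CTL, with Mfge8 at 112 ± 19.9 TPM, Tyro3 at 83.8 ± 16.7, Gas6 at 73.5 ± 10.6, Axl at 38.5 ± 1.27, Mertk at 22.3 ± 3.79, Pros1 at 14.9 ± 5.23 and Megf10 at 9.33 ± 1.51. Tyro3 was above Gas6, and Mertk above Pros1, in 3 of 4 RCV libraries.

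The make-up of the receptor pool differed between the groups. Tyro3 made up 66.3% ± 1.57 of the summed TPM of the 3 receptors in CTL (SD, n = 5), 43.1% ± 9.15 in CPZ (n = 4) and 57.7% ± 3.10 in RCV (n = 4). Axl made up 21.6% ± 2.10, 40.7% ± 7.02 and 27.0% ± 3.34, and Mertk 12.1% ± 1.70, 16.2% ± 2.79 and 15.4% ± 1.18 in the same order. In CPZ replicate 1 Axl reached 50.05% of the pool, and the highest CTL library was at 24.39%. The pool itself summed to 140.6 ± 7.29 TPM in CTL, 176.8 ± 31.0 in CPZ and 144.6 ± 20.9 in RCV. Of the summed TPM of the ligands, Pros1 made up 12.1% ± 2.88 in CTL, 22.4% ± 4.20 in CPZ and 16.5% ± 2.85 in RCV, so that Gas6 remained the main ligand transcript in every group.

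**Figure D3:**
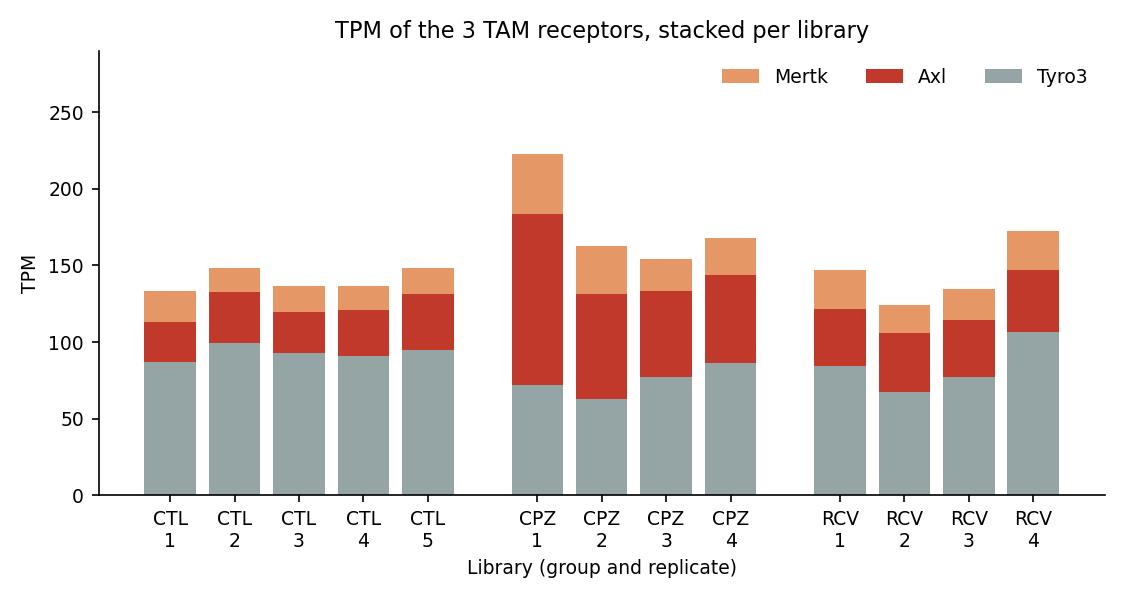
TPM of Tyro3, Axl and Mertk stacked for each library, with bars from 0. The CTL stacks are alike, at 133.1 to 148.5 TPM in all; in every CPZ library the Axl segment is taller and the Tyro3 segment shorter than in any CTL library, and CPZ replicate 1 is the tallest stack at 222.5 TPM.

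Whether one receptor or ligand changed more than another was tested on the difference of their log2(TPM + 1) values per mouse, with exact two-sided permutation tests adjusted over 12 tests. The smallest p that these tests allow is 0.0159 for 4 against 5 mice and 0.0286 for 4 against 4. In CPZ against CTL, Axl changed by 1.52 more than Tyro3, Mertk by 1.02 more than Tyro3 and Axl by 0.50 more than Mertk, each at the smallest p (exact p = 0.0159, adjusted p = 0.0381). Gas6 changed by 1.00 less than Pros1 at the same exact p. In none of these 4 tests did CPZ and CTL mice overlap. In RCV against CTL, the difference from Tyro3 was 0.51 for Axl (exact p = 0.0317, adjusted p = 0.0476) and 0.53 for Mertk (exact p = 0.0159, adjusted p = 0.0381), while Axl and Mertk differed by -0.03 (exact p = 0.873) and Gas6 and Pros1 by -0.51 (exact p = 0.0794, adjusted p = 0.103). In CPZ against RCV, Axl changed more than Mertk by 0.52 and more than Tyro3 by 1.01 (exact p = 0.0286, adjusted p = 0.0476 for both), whereas Mertk and Tyro3 differed by 0.49 (exact p = 0.171) and Gas6 and Pros1 by -0.49 (exact p = 0.0857, adjusted p = 0.103). With any 1 CPZ mouse left out, none of the 4 differences between CPZ and CTL passed the threshold (exact permutation tests, adjusted p = 0.0714 each). Neither difference called in CPZ against RCV passed with any 1 mouse left out (adjusted p = 0.0857 to 0.098). The smallest p for 3 against 4 mice is 0.0571, so no difference in CPZ against RCV could pass with a mouse left out. Leaving out a CPZ or RCV mouse also raises the smallest p of that group against CTL. After adjustment over the 12 tests, no difference between that group and CTL could then pass. Such a loss was therefore fixed in advance and does not show dependence on 1 mouse. In RCV against CTL, Axl minus Tyro3 passed without CTL replicate 5 and in no other case (adjusted p = 0.0714 to 0.107), and Mertk minus Tyro3 was lost without any 1 RCV mouse (adjusted p = 0.0714 to 0.0857) and kept without any 1 CTL mouse.

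The TPM values of Axl and Pros1, and to a lesser degree Tyro3, carry an uncertainty of their own, since a TPM also rests on the estimated mix of transcripts of a gene. Estimated counts per TPM, relative to 466 genes with a single annotated transcript, varied between libraries by a ratio of highest to lowest of 1.60 for Pros1 and 1.49 for Axl, 1.24 for Tyro3, 1.13 for Mertk, 1.09 for Megf10 and 1.07 for Mfge8. For Gas6, which has 1 annotated transcript, the ratio was 1.00, and the 466 genes had a median ratio of 1.003. The values of the groups overlapped for Axl and Pros1. For Tyro3 the lowest values, 0.928 and 0.858, were those of CTL replicates 4 and 5. These are the CTL libraries inside the CPZ range of Tyro3 in CPM, and they had the most Tyro3 TPM per count. The separation of CPZ and CTL for Tyro3 was thus seen in TPM only. In CPZ replicate 1, which had the largest Axl share of the receptor pool, the value of Axl was 0.838 relative to its mean. It was 1.066 to 1.097 in the other CPZ libraries, so CPZ replicate 1 had more Axl TPM per count than these. Its Axl CPM was also the highest. Counts and CPM do not depend on this mix. On log2-CPM, Axl changed more than Mertk in CPZ against RCV by 0.44 and was no longer past the threshold (exact permutation test, adjusted p = 0.0623), while Mertk changed more than Tyro3 by 0.57 and Gas6 less than Pros1 by 0.60 in that contrast, both now past it (adjusted p = 0.0381).

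**Figure D4:**
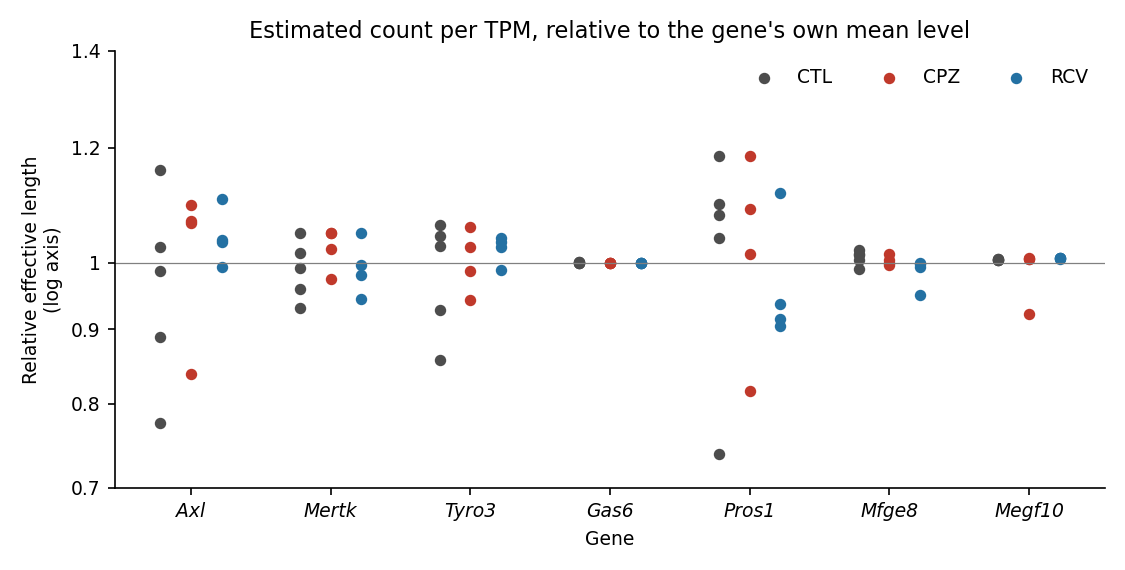
Estimated count per TPM of each gene in each library relative to the gene's own mean (log axis), after scaling each library by 466 genes with a single transcript; points are libraries, coloured by group. Gas6 lies on 1 in every library, while Axl runs from 0.776 to 1.158 and Pros1 varies by a ratio of 1.60.

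Beyond the members, genes of the same pathway were read from the same test. Of 17 other debris receptors and bridging proteins, 12 were tested, and 5 were higher in CPZ than in CTL, none was lower and 7 were not called; over all genes, 7.66% were called higher and 2.5% lower. The 5 were Trem2, a microglial lipid receptor (log2 fold change 3.04), Havcr2, which encodes Tim-3 (2.55), Itgb5 and Itgb3, subunits that pair with the alpha-v integrin that binds Mfge8 (1.74 and 1.09), and Stab1, a scavenger receptor (1.70). The largest of those not called was Scarf1 (0.31, edgeR adjusted p = 0.591). Timd4, Havcr1, Stab2, Cd300lf and Cd300lb did not pass the filter on low counts and were not tested. Of these, Cd300lf had a mean TPM of 0.356 in CTL, 3.88 in CPZ and 0.450 in RCV, and Cd300lb one of 0.026, 1.26 and 0.748. In mean TPM, Itgb5 was at 28.3 in CTL, 95.5 in CPZ and 40.1 in RCV, against 1.85, 3.75 and 1.64 for Itgb3. The median log2 fold change of the 12 genes was 0.26, against -0.02 over all genes.

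Of 14 genes of engulfment signalling, 4 were higher in CPZ than in CTL (7.66% over all genes) and 10 were not called. Vav1, an exchange factor for Rac found in blood and microglial cells, had a log2 fold change of 2.36, Plcg2, a phospholipase that acts under Trem2, 1.72, and Abca1, a lipid exporter linked to the uptake of dying cells, 1.68. Dock1, the exchange factor that acts with Elmo on Rac, had 0.52, while Elmo1, Elmo2 and Rac1 were not called (-0.10, -0.05 and 0.08), and the largest value among those not called was that of Vav3 (0.34, edgeR adjusted p = 0.779). The list's median was 0.06. Of 5 genes that activate the ligands or shed the receptors, Adam17 and Adam10, the proteases that cut TAM receptors from the surface, were higher (0.66 and 0.29; 7.66% over all genes), and 3 were not called, of which Vkorc1, the vitamin K reductase, had the largest value (0.45, edgeR adjusted p = 0.084). None of 10 genes for the exposure of phosphatidylserine or for do-not-eat-me signals was called, and the largest value was that of Cd24a (0.52, edgeR adjusted p = 0.211).

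After recovery, no gene of these 4 lists was called against CTL by edgeR, which is near the 0.374% called over all genes. Trem2 stood at 1.27 (edgeR adjusted p = 0.122), Vav1 at 0.96 (adjusted p = 0.355) and Havcr2 at 0.88 (adjusted p = 0.27). Plcg2 was at 0.69 (edgeR adjusted p = 0.399) and Itgb5 at 0.51 (adjusted p = 0.358). The 11 genes of these lists that were higher in CPZ than in CTL were all called against RCV too, higher in CPZ, with log2 fold changes of 0.31 (Adam10) to 1.76 (Trem2). Over all genes, 5.13% were called higher in CPZ than in RCV. The 11 genes were picked for high values in the same CPZ libraries, so these calls are not independent of the first ones.

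**Figure D5:**
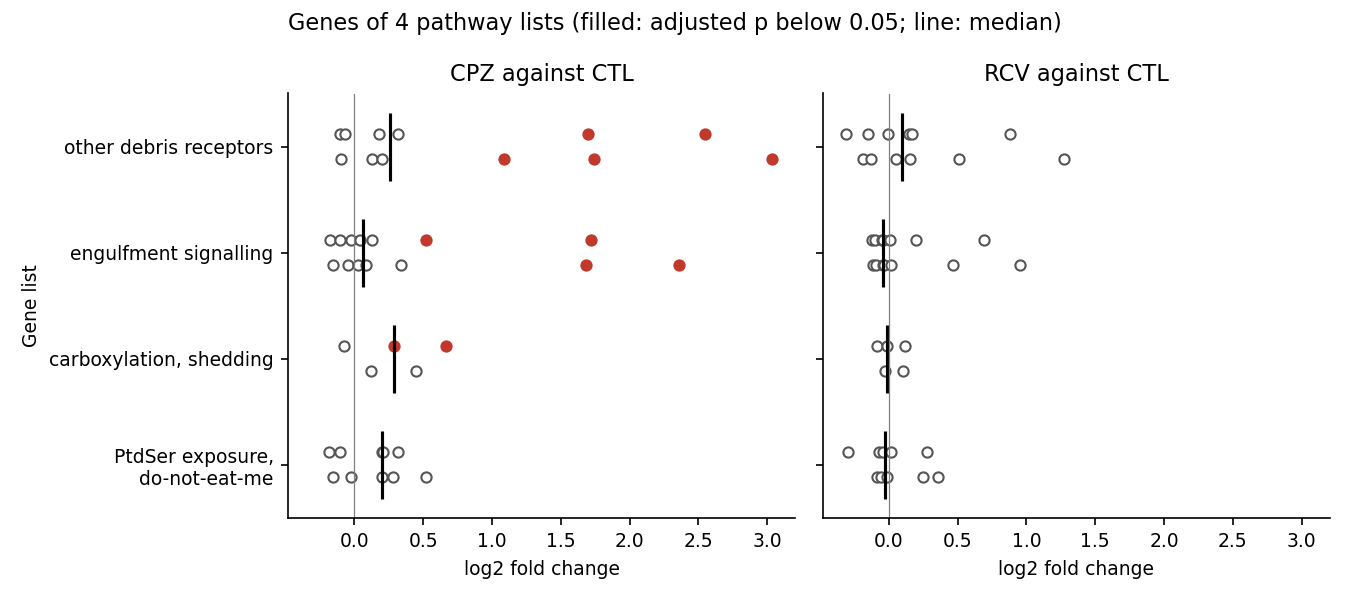
Log2 fold change of the tested genes of 4 pathway lists in CPZ against CTL (left) and RCV against CTL (right); each point is a gene, filled where edgeR called it, and black lines are list medians. In CPZ against CTL the called genes reach 3.04 in the first list and none is called in the last; in RCV against CTL every point is open.

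Markers of microglia moved with Axl, Mertk and Pros1. All 15 of 15 microglial markers were higher in CPZ than in CTL, with a median log2 fold change of 2.57, above the values of 1.34 for Axl, 0.83 for Mertk and 1.44 for Pros1. In CPZ replicates 1 to 4 the summed microglial TPM was 5277, 4635, 2427 and 2962, and the CPM of both Axl and Mertk had the same order of mice, with replicate 1 highest and replicate 3 lowest, whereas for Pros1 replicate 4 was the lowest. In RCV against CTL 1 of 15 microglial markers was called, against 0.374% of all genes, and the median was 0.73. Of 11 astrocyte markers 5 were higher in CPZ than in CTL, with a median of 0.30 and summed TPM of 1977 to 2386 in CTL, 2662 to 3151 in CPZ and 2447 to 2720 in RCV. In CPZ replicates 1 to 4 the astrocyte sums were 3151, 2962, 2662 and 2825 TPM. This was the same order of mice as for Axl, Mertk and the microglial markers, so the order is not particular to microglia. All 10 mature oligodendrocyte markers were lower in CPZ than in CTL, with a median of -1.47. Of 6 OPC markers, Olig2 (0.60, edgeR adjusted p = 0.00714) and Cspg4 (0.45, edgeR adjusted p = 0.0396) were higher in CPZ than in CTL, and the median was 0.04. None of 8 neuronal, 8 endothelial and 7 mural cell markers was called in CPZ against CTL. The mural sums were 195.5 to 222.3 TPM in CTL and 179.8 to 186.3 in CPZ, which did not overlap. The part of these cell types in the values of the members was not tested.

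The genes most like each member called in any contrast were found by the root mean square difference of log2-CPM over the 13 libraries, each gene centred on its mean. For Axl these were Tgfbr1 (0.129), a receptor of TGF-beta, and the lysosomal enzymes Ctsa (0.130) and Man2b1 (0.132). For Pros1 the nearest was again Tgfbr1 (0.189), followed by 9930111J21Rik2 (0.201) and Tnfrsf1b (0.202), a TNF receptor, and Axl was eighth (0.237). For Mertk they were BC028528 (0.162), Cyp4f14 (0.171) and Slc9a9 (0.172), and Axl stood at rank 229. For Gas6 they were Mid1ip1 (0.0858), Hadha (0.109) and Slc7a1 (0.109), and for Mfge8 Mpp2 (0.0870), Fbxo41 (0.101) and Dact3 (0.102). The members themselves deviated from their own means by 0.568 for Axl, 0.650 for Pros1, 0.395 for Mertk, 0.234 for Gas6 and 0.238 for Mfge8, so that a small distance says less for the last 2.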

How the data were processed

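Bulk RNA-seq libraries of 13 brain hemispheres were analysed. Per the labels they were made with an mRNA kit and sequenced as paired 50 base reads and STAR, RSEM and mm10 are named in the submitters' processing notes, without versions. The authors deposited estimated counts of each gene, unscaled, and TPM values. Between 10.8% and 12.3% of the nonzero counts per library were not whole, and all were rounded. Of 55401 gene identifiers, 54349 (98.1%) matched GENCODE release 21 of GRCm38. A further 92 identifiers were spike-ins with counts of 0 and were left out. Strand use in counting is not given in the sources used here.

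Groups came from the labels, where titles of RCV libraries begin with "Veh" and the treatment field names the recovery. Nothing ties a library to a litter or batch, so that p values measure the spread between these mice. A batch or litter that goes with a group could not be told apart from the diet. In edgeR 4.0.16, genes passed filterByExpr, counts were scaled by TMM, and all 13 libraries entered one robust quasi-likelihood fit with a mean for each group. Benjamini-Hochberg adjustment ran over 14985 genes, calls were made at 0.05, and log2-CPM used a prior count of 2. The 4 pairs of members were compared by exact permutation tests of log2(TPM + 1), with a pseudocount of 1. Fold changes from limma on TPM are on that scale, which understates the change of low genes. Over 22 pairs of libraries of one group, the chi-square for each gene averaged 4.489 to 17.77, so none was a copy. The test was checked on simulated counts. The members, lists, pairs and the rule for named genes (the members, called pathway genes with the largest uncalled one, and the 3 genes most like each called member) were chosen with earlier results of these data known. Rac1, Elmo1 and Elmo2 were named as partners of Dock1, and other genes in the recovery paragraph, after their values were seen. The list of TAM signalling partners is not reported here.

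Alternatives were DESeq2 size factors, the DESeq2 1.42.0 Wald test, limma-voom (limma 3.58.1), limma on log2(TPM + 1) or log2(TPM + 0.1) for genes at 1 TPM or more in at least 4 libraries, or without this filter, no filter on counts, at least 10 counts in every library, only the 2 groups compared, the replicate number as a block and each library left out in turn. Receptor shares from CPM divided by gene length, and with libraries left out, were added after seeing the data. The software was R 4.3.3, and Python 3.11.15 with numpy 2.4.6, pandas 2.3.3, scipy 1.17.1 and matplotlib 3.10.9. Nuclei and spatial data of the study were not analysed here.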

Additional observations from a re-analysis of the deposited data

Results flagged for a closer look

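In groups of 4 or 5 libraries, the gap of the highest or lowest library to its neighbour was set against Dixon's critical value, which chance passes in about 1 group in 20. It was passed in 7 of 42 groups of the members, each time by the highest library. CPM and TPM of the same libraries were counted apart, so the 42 groups are not independent. CTL replicate 1 had 39.15 CPM of Mertk, with the next library at 32.43. Gas6 was at 108.2 CPM in CTL replicate 3, with the next at 91.87, and this library decides the overlap of Gas6 between CTL and CPZ. In RCV replicate 2, Gas6 was at 107.7 CPM (next 83.72) and 89.24 TPM (next 70.01), and Megf10 was at 11.57 TPM (next 8.8). CPZ replicate 2 had 43.15 CPM of Megf10 (next 38.32) and 12.68 TPM (next 10.31). RCV replicate 2 was also the lowest RCV library for Mfge8, at 75.17 CPM, and the highest for Pros1, at 27.22 CPM, and it had the highest summed TPM of mature oligodendrocyte markers of all libraries, 4501.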

How the results depend on the processing

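The calls of Axl, Mertk, Pros1 and Mfge8 in CPZ against CTL and of Axl in CPZ against RCV held in every alternative run, with adjusted p values up to 0.0464. The members called were 4 or 5 in CPZ against CTL under every alternative, and in CPZ against RCV 2 to 4 with a library left out and 1 with limma on log2(TPM + 1) without a filter, where Pros1 (adjusted p = 0.0705) and Gas6 (adjusted p = 0.147) were lost. In RCV against CTL 1 member, Axl, was called by DESeq2, without the filter and with the 2 groups alone. Over all genes the count in CPZ against CTL was 993 with limma on log2(TPM + 1) without a filter. In RCV against CTL it was 124 with DESeq2, 16 with limma-voom, 16 with limma without a filter, 20 with at least 10 counts in every library and 21 to 54 with a library left out. In CPZ against RCV it was 584, 503 and 477 with limma on log2(TPM + 1), on log2(TPM + 0.1) and without a filter, and 632 to 1092 with a library left out.

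The replicate numbers did not pair the mice: deviations of same-numbered libraries correlated from -0.249 to 0.301, and the best match in the other group had the same number for 0 of 8 libraries in CPZ against CTL, 2 of 8 in RCV against CTL and 0 of 8 in CPZ against RCV. With the replicate block the members called were 4 in CPZ against CTL, 0 in RCV against CTL and 2 in CPZ against RCV, Gas6 being the one lost (adjusted p = 0.118 and 0.0738).

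Some small fold changes in RCV against CTL changed sign with a library left out, where Megf10 ran from -0.167 to 0.031, Gas6 from -0.170 to 0.0024 and Tyro3 from -0.213 to 0.0089: Megf10 was at 0.0049 without CTL replicate 1, 0.031 without CTL replicate 3 and 0.015 without RCV replicate 1, Gas6 at 0.0024 without CTL replicate 3 and Tyro3 at 0.0089 without RCV replicate 2. The difference of Axl and Mertk in RCV against CTL was 0.080 on log2-CPM and -0.132 to 0.044 with a mouse left out, positive without CTL replicates 2 (0.039), 4 (0.0027) and 5 (0.030) and RCV replicates 1 (0.044) and 4 (0.025). With a mouse left out, Axl minus Mertk ran from 0.392 to 0.566 in CPZ against CTL and 0.453 to 0.616 in CPZ against RCV, and Axl minus Tyro3 from 1.29 to 1.69, 0.406 to 0.606 in RCV against CTL and 0.783 to 1.18 in CPZ against RCV. Mertk minus Tyro3 ran from 0.853 to 1.19 in CPZ against CTL and 0.477 to 0.610 in RCV against CTL, and Gas6 minus Pros1 from -1.13 to -0.864 in CPZ against CTL. Each call lost with a mouse left out rests on fewer mice, and at 4 against 4 the loss also depended on which mouse it was, as Axl minus Tyro3 in RCV against CTL passed without CTL replicate 5 (adjusted p = 0.0429) and not without CTL replicates 1 to 4 (adjusted p = 0.0762 to 0.0857). On log2-CPM in CPZ against RCV, the differences were 0.44 for Axl minus Mertk, 0.57 for Mertk minus Tyro3 and -0.60 for Gas6 minus Pros1. The remaining share of Axl was 0.186 on linear TPM. From CPM divided by length, Mertk made up 17.4%, 22.3% and 20.8% of the receptor pool in CTL, CPZ and RCV, and Tyro3 60.0% in CTL and 50.7% in RCV. The cause of the changes under DESeq2 and limma was not tested. Depth limits Pros1 most, which had the fewest counts.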
